A study of Mus musculus with 2 samples.

Results

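Author cluster 39 is one of the groups of tumour macrophages in the deposited cell annotation, and it held 142 of the 5725 annotated macrophages of library 2. Its members were taken as the library 2 cells that the authors had labelled both macrophage and cluster 39, so no measurement made here chose them, although the authors' clusters rest on the same counts. The other 5583 macrophages of the library were the comparison, and the whole annotation covers 19210 cells. The cells are CD45+ leukocytes sorted from subcutaneous MC38 tumours (a mouse colon adenocarcinoma line) and measured with a 3' droplet assay after the mice had been pooled by cell hashing. All mice carried human Fc gamma receptors, per the labels, and every group shares this genotype.

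The treatments were 100 µg per mouse of a human IgG1 antibody against mouse GITR, or PBS, given by intraperitoneal injection 2 times at an interval of 3 days, and tumours were taken 4 days after treatment. GA-aFuc is annotated as agonist with an enhanced Fc, GITR/Syn GA-aFuc as non-agonist with an enhanced Fc, and N297A as agonist with a null Fc. Untreated mice had PBS. Library 2 held mice 7 to 12, which are GA-aFuc mice 2 and 3, GITR/Syn GA-aFuc mice 2 and 3, N297A mouse 3 and Untreated mouse 3. Cluster 39 had 20, 35, 18, 23, 31 and 15 cells in these mice, taken in that order, which is also the order of every list of 6 values below. The summed cluster 39 cells of a mouse held between 210653 and 380814 UMIs (counted RNA molecules), so that 3 UMIs correspond to between 7.88 and 14.2 CPM (UMIs per 1000000 UMIs of all features). Ages of the mice are not given in the sources used here.

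Macrophages in tumours take up dying cells and debris, present antigen on MHC class II and carry Fc receptors, which bind the constant part of antibodies. Where oxygen is short, hypoxia-inducible factors escape hydroxylation and degradation and switch on genes of glucose uptake, glycolysis, pH control and mitophagy. The core of their binding site reads ACGTG or GCGTG. Metallothioneins, small cysteine-rich proteins that bind zinc and copper, are induced through metal response elements, whose core reads TGCACNC or TGCGCNC.

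The promoters of 5 genes that were higher in cluster 39 are shown because they carry these cores. They come from RefSeq on build GRCm38.p6, run from 250 bases before to 50 after the gene's start, and are printed 5' to 3' on the gene's strand. In the first 4, capitals mark ACGTG or GCGTG on either strand, and in Mt2 they mark TGCACNC or TGCGCNC on either strand. The Bnip3 promoter lies at chr7:138909457-138909756 on the minus strand and holds 5 matches, 2 of which overlap in CACGTG. The P4ha2 promoter lies at chr11:54100674-54100973 on the plus strand and holds 4. The Ero1a promoter lies at chr14:45318523-45318822 on the minus strand and holds 3. The Pgk1 promoter lies at chrX:106186850-106187149 on the plus strand and holds 2. The Mt2 promoter lies at chr8:94172368-94172667 on the plus strand and holds 4 metal cores.
Bnip3: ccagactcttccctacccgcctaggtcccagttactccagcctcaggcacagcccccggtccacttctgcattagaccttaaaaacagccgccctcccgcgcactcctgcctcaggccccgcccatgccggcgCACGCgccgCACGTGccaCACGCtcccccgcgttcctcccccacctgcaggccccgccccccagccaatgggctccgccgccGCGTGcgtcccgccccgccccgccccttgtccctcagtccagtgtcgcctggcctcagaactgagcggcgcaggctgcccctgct
P4ha2: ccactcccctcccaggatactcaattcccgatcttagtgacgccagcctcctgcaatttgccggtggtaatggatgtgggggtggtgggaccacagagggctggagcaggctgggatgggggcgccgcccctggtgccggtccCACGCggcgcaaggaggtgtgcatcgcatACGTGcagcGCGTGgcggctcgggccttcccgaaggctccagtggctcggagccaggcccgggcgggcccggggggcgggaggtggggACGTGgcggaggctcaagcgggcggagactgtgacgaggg
Ero1a: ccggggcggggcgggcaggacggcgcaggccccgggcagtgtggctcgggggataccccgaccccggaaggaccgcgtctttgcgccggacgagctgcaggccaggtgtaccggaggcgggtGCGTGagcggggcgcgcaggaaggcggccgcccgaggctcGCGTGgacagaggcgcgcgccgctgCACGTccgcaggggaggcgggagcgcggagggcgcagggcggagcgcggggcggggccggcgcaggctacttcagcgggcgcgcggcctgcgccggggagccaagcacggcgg
Pgk1: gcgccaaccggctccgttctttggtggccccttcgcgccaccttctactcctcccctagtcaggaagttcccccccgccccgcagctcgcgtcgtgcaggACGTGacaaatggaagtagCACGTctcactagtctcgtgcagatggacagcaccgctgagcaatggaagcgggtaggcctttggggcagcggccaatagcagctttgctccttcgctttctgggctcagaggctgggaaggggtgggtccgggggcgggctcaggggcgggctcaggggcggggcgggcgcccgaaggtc
Mt2: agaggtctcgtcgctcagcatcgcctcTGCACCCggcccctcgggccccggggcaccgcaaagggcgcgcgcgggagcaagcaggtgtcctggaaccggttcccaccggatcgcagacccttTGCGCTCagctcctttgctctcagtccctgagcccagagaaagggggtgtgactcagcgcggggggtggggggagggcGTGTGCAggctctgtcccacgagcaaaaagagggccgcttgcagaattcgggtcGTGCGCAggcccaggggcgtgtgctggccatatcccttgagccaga
Of the 20 genes that lead cluster 39, 14 were in the promoter table, and 11 of these (78.6%) had at least 1 ACGTG or GCGTG on either strand. The core was also present in 18 of 24 promoters of the hypoxia and glycolysis genes (75%) and in 11836 of all 27025 promoters (43.8%). A match is a run of letters and not a measured binding site. Hmox1, Ndrg1, Arg1, Nos2, Cox4i2 and Prelid2 are named without a promoter.

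The macrophage label was checked against its defining markers. C1qa, which encodes a chain of complement C1q, had 3740, 757, 4564, 3694, 3952 and 4334 CPM in cluster 39, against 5159, 3861, 4450, 5634, 5122 and 5958 CPM in other macrophages. Apoe, the lipid carrier, had 9697, 1701, 6631, 8545, 7410 and 9414 CPM in cluster 39. Adgre1 (F4/80) lay between 133 and 475 CPM and Ms4a7 between 376 and 1535 CPM in cluster 39. In 5 mice the cells thus carried macrophage markers at the level of other macrophages or near it, and GA-aFuc mouse 3 was lowest for all 4.

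GA-aFuc mouse 3 stood apart before any comparison. The summed level of C1qa, C1qb and C1qc per cluster 39 cell had a median of 951 CPM there, against medians of 9377 to 12659 CPM in the other 5 mice. In that mouse 22 of 35 cells were below 2000 CPM, a mark set after the values had been seen, against 4 of 107 cells in the other 5 mice together. The same mouse was low in the neighbouring cluster 9, where 94 of 148 cells (63.5%) were below the mark, against 26 of 185 (14.1%) in the other mice. Among all macrophages outside cluster 39 it had 123 of 791 such cells (15.5%), against 48 of 4792 (1.0%).

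**Figure D1:**
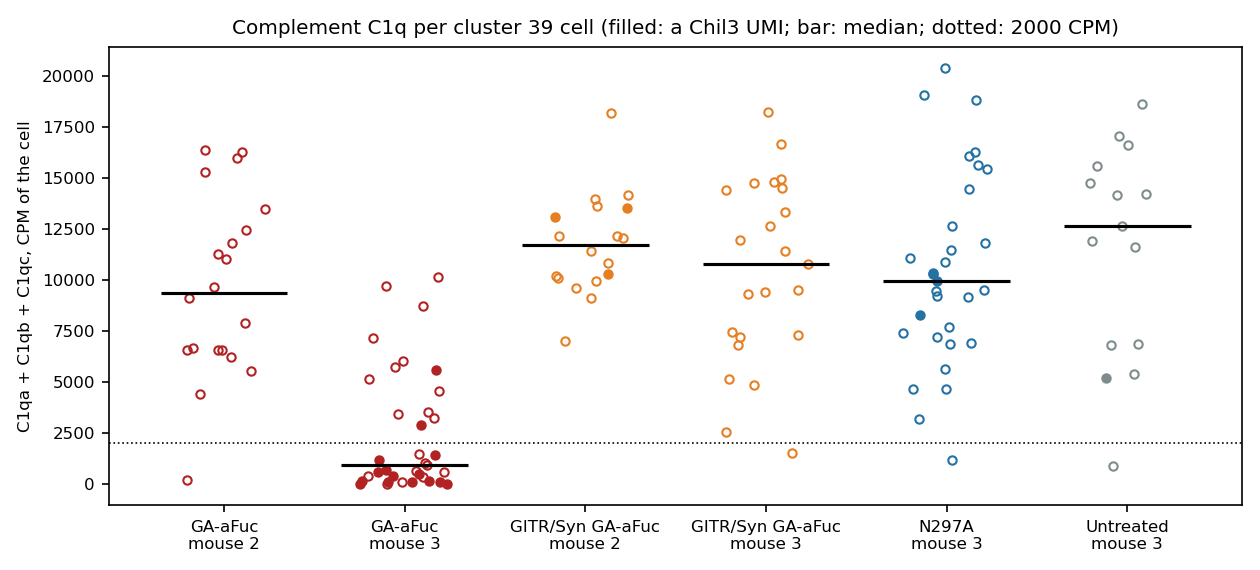
Each point is 1 cell of cluster 39, grouped by mouse on the x axis, and the y axis is the summed CPM of C1qa, C1qb and C1qc in that cell, with bars at the medians, a dotted line at 2000 CPM and filled points for cells with a Chil3 UMI. In GA-aFuc mouse 3, 22 of 35 cells lie under the line, and the other mice have 0 or 1 such cell each.

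Genes of other myeloid states moved with this mouse. Chil3, a chitinase-like protein of monocytes and of alternatively activated macrophages, had 1138 UMIs in 15 of 35 cells there and between 0 and 3 UMIs in each other mouse. Ccl8, a chemokine, had 1935 UMIs in 13 cells, 555 of them in 1 cell, and at most 6 UMIs in any other mouse. Cxcl3, a neutrophil-attracting chemokine, had 627 UMIs there and at most 1 elsewhere. All 3 genes were also highest in this mouse among other macrophages. Ccl8 had 1005 CPM in its other macrophages, against 20.9 to 91.5 CPM in the other 5 mice. Chil3 was seen in 19.7% of its other macrophages, against 4.64% to 5.72% in the other mice. For Cxcl3 this was 15.0%, against 2.05% to 3.41%. Their part in the results below was not tested, and every comparison with other macrophages was also made without this mouse.

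Several marker sets of other cell types were checked in cluster 39. The monocyte set is not reported here, and its member Chil3 is given above for GA-aFuc mouse 3. All 5 MC38 tumour cell markers and all 3 erythroid markers were at 0. The 5 T cell markers summed to 0 to 26.9 CPM, the 4 NK markers to 0 to 10.2 CPM and the 3 B cell markers to 0 to 6.81 CPM. The 5 neutrophil markers summed to 34.1 to 76.3 CPM in cluster 39 and 28.3 to 48.9 CPM in other macrophages. Some genes of the dendritic cell marker sets were present in both populations. At least 20 CPM on average in cluster 39 was reached by 2 of 4 plasmacytoid, 2 of 4 cDC1 and 1 of 4 cDC2 markers. The 4 plasmacytoid markers summed to 473 to 1733 CPM in cluster 39 and 1262 to 1711 CPM in other macrophages, with Siglech at 0 in cluster 39. Most of the cluster 39 sum came from Bst2, which averaged 1028 CPM there. The 4 cDC1 markers summed to 222 to 444 CPM in cluster 39 and 315 to 484 CPM in other macrophages, and the 4 cDC2 markers to 194 to 500.4 CPM in cluster 39 and 246 to 459 CPM in other macrophages, with Cd209a at 0 in cluster 39. Most of the cDC2 sum in cluster 39 came from Sirpa, which averaged 300 CPM there. The part of these marker sets in the results was not tested.

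Set against all other macrophages together, cluster 39 had more RNA of the hypoxia and glycolysis list and of the metallothioneins Mt1 and Mt2, and less of the proliferation, interferon and MHC class II lists. The lower levels were shared with other macrophage clusters. Proliferation genes summed to 1153 CPM in cluster 39, against 1211 CPM in cluster 11 and 1203 CPM in cluster 30, and MHC class II genes to 6202 CPM in cluster 39, against 4750 CPM in cluster 9, 4814 CPM in cluster 12 and 4549 CPM in cluster 5. Interferon genes summed to 5226 CPM in cluster 39, against 4002 CPM in cluster 9. A gene is called higher or lower here when the median over 6 mice of log2((CPM in cluster 39 + 10)/(CPM in other macrophages + 10)) was at least 1 in size and all 6 mice had the same direction. By this rule 89 of 6547 genes with a mean of at least 20 CPM were higher (1.36%) and 216 were lower (3.3%). Cells were clustered on these same genes by the authors, so these are descriptions of the cluster and carry no test. The median ratio over all 6547 genes was -0.17, and the ratios below are not shifted for it. At any size, 361 of these genes (5.51%) were higher and 1359 (20.8%) lower in 6 of 6 mice.

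The hypoxia and glycolysis list was the one that moved most upward. Of its 22 genes over the CPM minimum, 19 were called higher and 0 lower, with a median log2 ratio of 1.33, beside the -0.17 of all genes. All 22 were higher in 6 of 6 mice. The 3 that missed the 2-fold mark were Vegfa (0.99), Mxi1 (0.62) and P4ha1 (0.49).

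Bnip3 encodes a mitophagy receptor of the outer mitochondrial membrane. It had 521, 763, 466, 511, 596 and 399 CPM in cluster 39, against 95.6, 205, 55.0, 118, 121 and 72.4 CPM in other macrophages (median log2 ratio 2.26, range 1.85 to 2.87). The lowest cluster 39 mouse was above the highest of the other macrophages. A Bnip3 UMI was seen in 90% to 100% of cluster 39 cells per mouse and in 40.8% to 58.4% of other macrophages, at median depths of 9676 to 13824 and 12663 to 15181 UMIs.

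Enzymes that hydroxylate or oxidise proteins were among the leading genes. Egln3, a prolyl hydroxylase that acts on hypoxia-inducible factors, had 85.3, 308, 38.8, 81.7, 97.2 and 47.5 CPM in cluster 39, against 8.37, 47.6, 4.04, 10.7, 9.99 and 5.16 CPM in other macrophages (2.26). P4ha2, a collagen prolyl hydroxylase subunit, had 62.8, 82.8, 73.3, 47.7, 57.8 and 42.7 CPM in cluster 39, against 2.74 to 12.4 CPM in other macrophages (2.08). Ero1a, an oxidase of disulphide bond formation in the endoplasmic reticulum, had 301, 2177, 147, 347, 389 and 171 CPM in cluster 39, against 62.4, 278, 42.6, 77.2, 74.7 and 43.0 CPM in other macrophages (2.07). P4ha2 did not overlap between the populations, while Egln3 and Ero1a of other macrophages in GA-aFuc mouse 3 reached the range of cluster 39 in other mice. Within each mouse cluster 39 was above its own comparison for all 3.

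Glycolytic genes were higher in each mouse. Pgk1, phosphoglycerate kinase, had 1221, 1689, 1040, 1409, 1371 and 1301 CPM in cluster 39, against 402, 564, 306, 448, 452 and 327 CPM in other macrophages (1.61, range 1.57 to 1.96), so the groups did not overlap. The glucose transporter gene Slc2a1 had a ratio of 1.41, Aldoa 1.61, Tpi1 1.46, Pkm 1.24, Gapdh 1.24, Eno1 1.19, Ldha 1.13, Pfkl 1.09 and Hk2 1.06. Ndrg1 (2.24), a stress-induced gene, Hilpda (1.88), an inhibitor of fat breakdown on lipid droplets, Mif (1.54) and Higd1a (1.25) complete the strongest members. Cox4i2 (1.96), a hypoxia-induced isoform of a cytochrome c oxidase subunit, stood outside the list and ran from 17.8 to 89.8 CPM in cluster 39 and from 8.0 to 14.4 CPM in other macrophages.

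**Figure D2:**
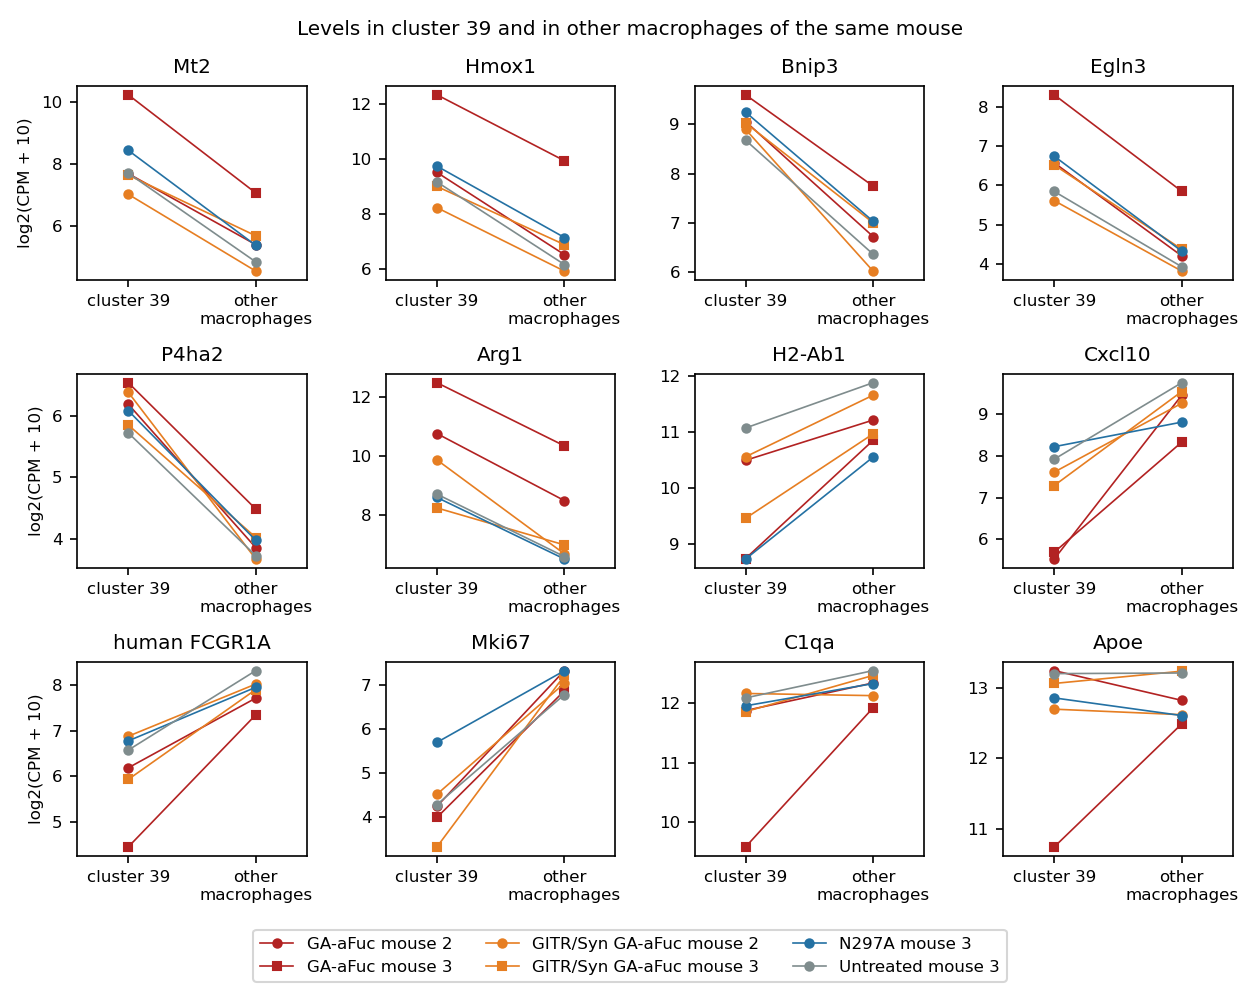
Each panel shows 1 gene, with log2(CPM + 10) on the y axis in cluster 39 (left) and in other macrophages (right), a line joining the values of a mouse, colours for treatments, and squares for GA-aFuc mouse 3 and GITR/Syn GA-aFuc mouse 3. Bnip3, for example, lies between 399 and 763 CPM in cluster 39 and between 55.0 and 205 CPM in other macrophages.

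Metallothioneins gave the largest single ratio. Mt2 had 198, 1195, 121, 191, 339 and 199 CPM in cluster 39, against 32.5, 125, 13.5, 41.8, 31.8 and 18.9 CPM in other macrophages (2.67, range 1.95 to 3.16). Mt1 had 1778, 3802, 1376, 2182, 3364 and 1756 CPM in cluster 39, against 455, 751, 268, 530, 416 and 357 CPM in other macrophages (2.29). Both were higher in each mouse, and Mt1 did not overlap between the populations. Of the 4 tested genes of the metal list these were the 2 called.

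Of the 11 tested genes of the NRF2 and oxidative stress list, 4 were higher and 0 lower, with a median of 0.97. Hmox1, haem oxygenase, which breaks haem down and releases iron, had 727, 5192, 293, 507, 853 and 570 CPM in cluster 39, against 82.9, 979, 51.4, 109, 133 and 62.4 CPM in other macrophages (2.49, range 2.11 to 3.00). GA-aFuc mouse 3 was the highest mouse in both populations. The ferritin chains Ftl1 (1.16) and Fth1 (1.07), which store iron, and the peroxidase Prdx1 (1.08) were the other members called. Ftl1 reads can be shared with near-identical copies, and Ftl1-ps1 was also called higher.

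Arg1 and Nos2, both of which use arginine, were among the 20 leading genes. Arg1, arginase, which turns arginine into urea and ornithine, had 1706, 5654, 915, 289, 373 and 404 CPM in cluster 39, against 345, 1276, 91.7, 116, 80.2 and 85.5 CPM in other macrophages (2.13, range 1.25 to 3.18). Nos2, which makes nitric oxide from the same substrate, had 71.8, 287, 17.3, 64.7, 68.3 and 138 CPM in cluster 39, against 12.2, 55.5, 7.66, 11.9, 8.21 and 9.96 CPM in other macrophages (1.99). Slc7a2, a transporter of cationic amino acids, had a ratio of 1.31. Arg1 and Slc7a2 were the 2 called of 9 tested genes of the alternative activation list (median 0.20), and Nos2 was the 1 called of 15 tested inflammatory genes (median -0.02).

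Further leading genes code for surface and secreted proteins. Lgals3, galectin-3, had 5059, 7166, 3581, 4997, 5115 and 3318 CPM in cluster 39, against 1298, 2139, 908, 1332, 1299 and 1229 CPM in other macrophages (1.93), with no overlap. Mmp12, macrophage elastase, had 418, 290, 99.2, 225, 344 and 52.2 CPM in cluster 39, against 31.8, 182, 16.9, 57.7, 33.5 and 17.6 CPM in other macrophages (1.91). The lectin gene Clec4d (2.15), the annexin Anxa2 (1.95), the endosomal adaptor Appl2 (1.93), the metalloprotease Adam8 (1.82) and the membrane protein Ninj1 (1.80) were also among the 20 leading genes. Lgals3 and Mmp12 were the 2 called of 16 tested lipid-associated macrophage genes (median 0.44), whose other members included Spp1 at 0.29, Gpnmb at 0.03 and Fabp5 at 0.25. Ctsl, a cathepsin, was the 1 called of 18 lysosomal genes (1.09), and the chemokine gene Pf4 was higher (1.23).

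Cell cycle RNA was scarce in cluster 39. Of 25 proliferation genes, 23 were lower and 0 higher, with a median of -1.95. Top2a, topoisomerase II alpha, had 18.0, 14.8, 21.6, 20.4, 34.1 and 14.2 CPM in cluster 39, against 230, 141, 203, 201, 226 and 181 CPM in other macrophages (-2.78). Mki67, the proliferation marker, was seen in 0% to 16.7% of cluster 39 cells per mouse and in 23.4% to 38.2% of other macrophages (-2.70). The lowest ratios of all called genes were those of the linker histone H1f5 (-3.46), Birc5 (-3.03), Cenpe (-2.90) and Pclaf (-2.89), and 7 of 9 tested histone genes were lower. The comparison holds clusters with much cell cycle RNA. Without clusters 4, 13, 17 and 56 the count of lower genes was 94, of which 85 were among the 216, and the ratio of Top2a was -0.57, of Mki67 -1.08, of H1f5 -0.35 and of Pclaf -0.76. Without cluster 24 as well, 93 genes were lower, 81 of them among the 216, and the ratio of Top2a was -0.30, of Mki67 -0.45, of H1f5 -0.31 and of Pclaf -0.52.

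Interferon-inducible RNA was lower. Of 26 interferon genes, 9 were lower and 0 higher, with a median of -0.88, and 20 were lower in 6 of 6 mice. Cxcl10, a chemokine that attracts CXCR3-bearing T cells, had 35.9, 41.4, 186, 146, 289 and 233 CPM in cluster 39, against 695, 312, 607, 740, 440 and 858 CPM in other macrophages (-2.05), with no overlap. Ifit3 (-1.64), Ifi44 (-1.33), Isg15 (-1.22), Ifit2 (-1.14) and Ifit1 (-1.10) were also called. Cxcl9, another CXCR3 ligand, had 49.4, 17.8, 280, 10.2, 49.9 and 1343 CPM in cluster 39, against 860, 279, 758, 499, 299 and 1144 CPM in other macrophages (-2.87). It was not called because the Untreated mouse went the other way, where 168 of 283 UMIs came from 1 of 15 cells.

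MHC class II genes were lower too. Of 7 tested, 5 were called lower and 0 higher, with a median of -1.15, and all 7 were lower in 6 of 6 mice. H2-Ab1 had 1441, 420, 1506, 698, 418 and 2155 CPM in cluster 39, against 2378, 1848, 3239, 2003, 1501 and 3782 CPM in other macrophages (-1.30, range -2.11 to -0.72). H2-Eb1 (-1.23), Ciita (-1.22), the master regulator of the class, H2-DMb1 (-1.15) and H2-Aa (-1.11) followed. The levels of the 2 populations overlapped across mice for H2-Ab1, while each mouse had less in cluster 39. Cd74, the invariant chain, was lower in each mouse at a ratio of -0.70. None of 10 class I genes was called (median -0.54).

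Among smaller groups, the complement genes C4b (-1.11) and Cfb (-1.02) and the sterol synthesis genes Fdps (-1.31) and Cyp51 (-1.06) were lower. The chemokine gene Ccl5 was lower (-1.65). No gene of the macrophage identity list (14 tested, median -0.07), of the monocyte list (8 tested, median 0.19), of the stress list (12 tested) or of the ribosomal list (17 tested, median 0.25) was called. All 13 mitochondrially encoded RNAs had ratios below 0 (median -0.60), and none was called.

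**Figure D3:**
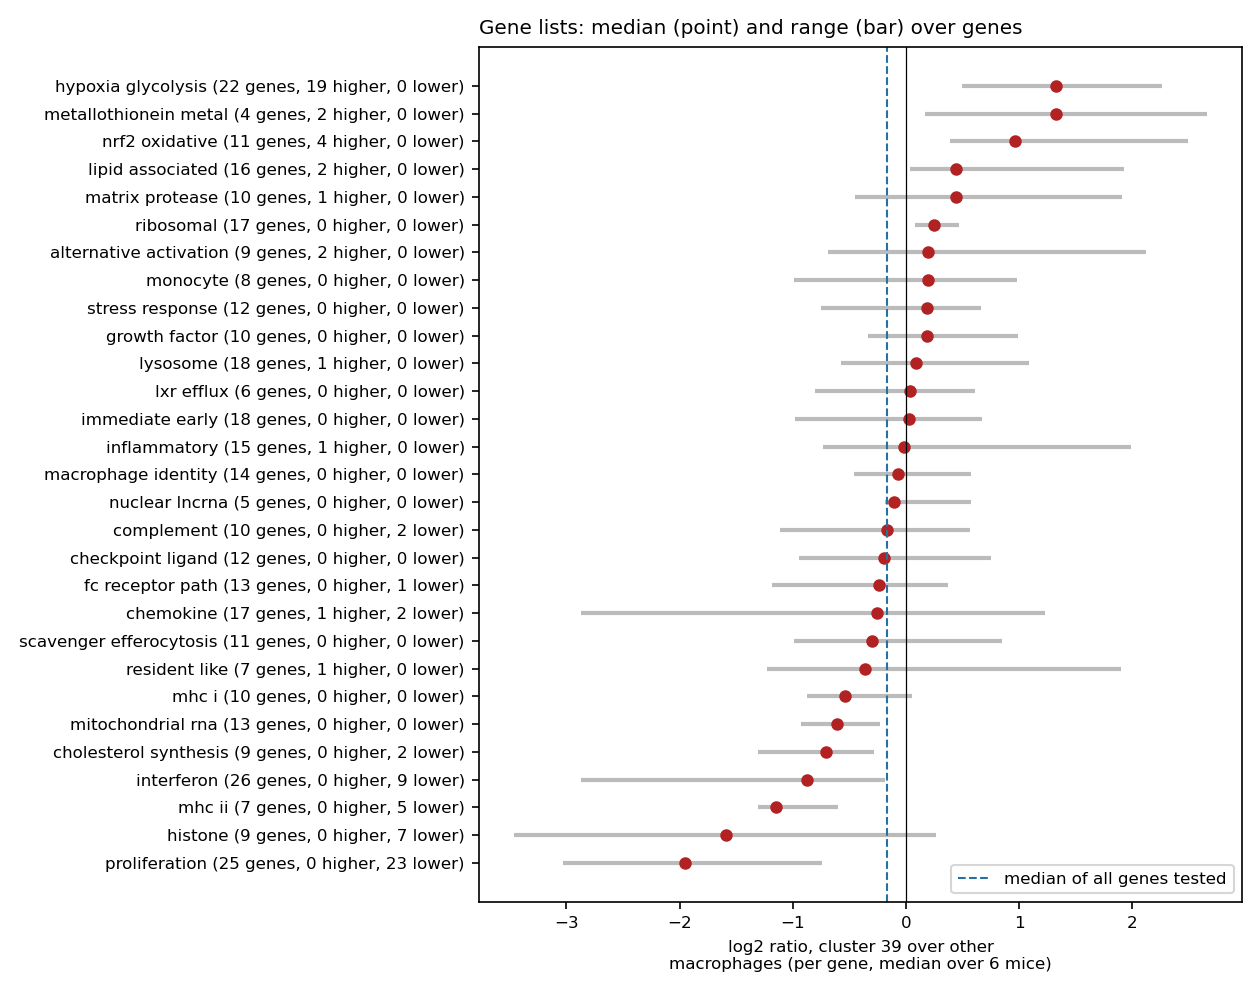
Each line is a gene list, with the median (point) and range (bar) over its tested genes of the log2 ratio of cluster 39 over other macrophages on the x axis, a dashed line at the median of all genes, and the counts called higher and lower beside the name. The hypoxia and glycolysis list stands at 1.33 and the proliferation list at -1.95, against -0.17 for all genes.

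The pattern was present in most single cells. The hypoxia and glycolysis list took a median of 1.78% of the UMIs of a cluster 39 cell, against 0.496% in other macrophages. By mouse the medians were 1.72%, 2.34%, 1.39%, 1.77%, 1.95% and 1.52% in cluster 39, against 0.504%, 0.696%, 0.390%, 0.558%, 0.555% and 0.454% in other macrophages. Of the 142 cells, 121 (85.2%) were above the 90th percentile of other macrophages for this list and 97 (68.3%) for the metal list. MHC class II genes took 0.298% of the UMIs of a median cluster 39 cell, against 0.965% in other macrophages, and interferon genes 0.385% against 0.771%. Inside GA-aFuc mouse 3 the hypoxia list took 2.49% in the 22 cells with less than 2000 CPM of C1q and 2.24% in the 13 other cells, so both kinds of cell had it.

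Cells of cluster 39 were somewhat shallower. Their median UMI count per mouse averaged 12133 ± 1472 in cluster 39 and 14314 ± 875 in other macrophages (SD, n = 6 mice), and it was lower in 6 of 6 mice. The mitochondrial share of UMIs averaged 1.4% ± 0.245 in cluster 39 and 2.07% ± 0.157 in other macrophages, also lower in 6 of 6. With each cell thinned to 3000 UMIs, the median number of genes per cell was 1368 to 1578 in cluster 39 and 1485 to 1596 in other macrophages, lower in 6 of 6. These 3 measures come from the clustered counts and carry no test. The hashtag reads do not: total hashtag counts averaged 3782 ± 1293 in cluster 39 and 4159 ± 674 in other macrophages (exact paired sign-flip permutation test, two-sided, p = 0.406), and the second hashtag's share averaged 1.16% ± 0.261 in cluster 39 and 0.889% ± 0.121 in other macrophages (p = 0.0625, adjusted 0.0750 over 6 measures, higher in 5 of 6 mice). The 6 measures of this adjustment also include UMIs, genes, mitochondrial share and human share per cell, which come from the clustered counts. The adjusted p is therefore not one over the hashtag measures alone. The smallest p this test can give with 6 mice is 0.03125.

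The nearest clusters were 11, 9 and 12, chosen after the values had been seen, with correlations across 6547 genes of 0.960, 0.954 and 0.951 with cluster 39. Cluster 9 shared most of the pattern: its 333 cells had 19670 CPM of the hypoxia and glycolysis list, against 18139 CPM in cluster 39, and these were the 2 highest of 58 annotated clusters. Cluster 11 followed with 12594 CPM. The 20 leading genes of cluster 39 ranked first or second among the 24 macrophage clusters compared, and for all of them but Cox4i2 the other cluster at the top was 9.

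**Figure D4:**
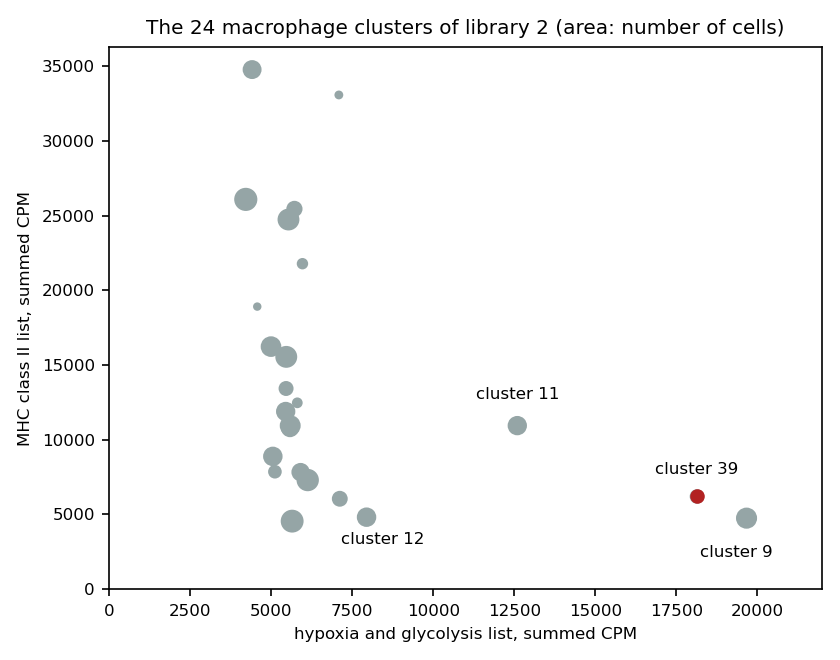
Each point is 1 of 24 macrophage clusters, with its area for the number of cells, the summed CPM of the hypoxia and glycolysis list on the x axis and of MHC class II genes on the y axis. Cluster 39 lies at 18139 CPM of the hypoxia list and 6202 CPM of MHC class II, next to cluster 9 at 19670 and 4750 CPM.

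Set against cluster 9, cluster 39 had 6 genes called higher of 6196 (0.0968%) and 151 called lower (2.44%). Hspa1b (-3.45) and Hspa1a (-2.92), both coding for inducible HSP70, were lower, and 4 of 13 stress genes were lower in all. Gpnmb (-2.95), Gdf15 (-2.37), Mmp12 (-2.07) and Fabp5 (-1.96), genes of lipid-laden or stressed macrophages, were also lower, as were Vegfa (-1.08), the angiogenic factor, and Hk2 (-1.01). The 6 higher genes were Iigp1 (1.18), an interferon-inducible GTPase, Nlrp1b (1.17), Tnfaip8l2 (1.15), Psd3 (1.13), Cd81 (1.09) and Arl6ip5 (1.01). The hypoxia list as a whole had a median of -0.06 between the 2 clusters, with 0 of 23 genes higher and 4 lower. Median depths differed, at 12124 UMIs per cell in cluster 39 and 9171 in cluster 9.

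Set against cluster 11, cluster 39 had 20 genes higher of 6325 (0.316%) and 14 lower (0.221%). The higher genes were led by Hmox1 (2.75), Mt2 (2.43), Clec4d (2.10), Egln3 (1.74) and Mt1 (1.68), and 5 of 22 hypoxia genes and 4 of 11 NRF2 genes were among them. The lower genes included Spon1 (-1.46), Rap1gap2 (-1.35) and Nr4a1 (-1.16), an immediate early nuclear receptor. MHC class II genes summed to 6202 CPM in cluster 39 and 10945 CPM in cluster 11, and none of them was called between the clusters.

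Set against cluster 12, cluster 39 had 59 genes higher of 6435 (0.917%) and 101 lower (1.57%). Nos2 (2.73), Ndrg1 (2.67) and Mmp12 (2.57) were high, and 12 of 22 hypoxia genes were called. Ccl8 (-2.39), the adhesion molecule gene Vcam1 (-2.21), the mannose receptor Mrc1 (-1.96) and the lysozyme Lyz2 (-1.80) were low, as were 6 of 11 tested genes of the resident-like list. The Ccl8 ratio ran from -4.74 to -0.42 over the mice.

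Human Fc gamma receptors, which bind the human IgG1 antibodies given, were present in cluster 39. FCGR1A, the high-affinity receptor, had 62.8, 11.8, 108, 51.1, 99.8 and 85.4 CPM in cluster 39, against 201, 153, 251, 230, 239 and 310 CPM in other macrophages (-1.64, range -2.90 to -1.15), with no overlap. A UMI of it was seen in 8.57% to 61.1% of cluster 39 cells per mouse and in 56.9% to 88.5% of other macrophages. The low level was not particular to cluster 39. FCGR1A averaged 45.3 CPM over mice in cluster 9 and 97.6 CPM in cluster 11, against 69.8 CPM in cluster 39. FCGR2B, the inhibitory receptor, had 440, 953, 306, 633, 596 and 764 CPM in cluster 39, against 289, 455, 278, 402, 504 and 392 CPM in other macrophages (0.62, higher in 6 of 6, not called). FCGR2B averaged 624 CPM in cluster 9, 621 CPM in cluster 11 and 198 CPM in cluster 12, against 615 CPM in cluster 39. FCGR2A, an activating receptor, had 1306, 1464, 1557, 1464, 1061 and 1063 CPM in cluster 39, against 961, 1088, 1033, 1147, 1037 and 978 CPM in other macrophages (0.39, higher in 6 of 6, not called).

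FCGR3A and FCGR3B are near-identical copies whose reads cannot be split with confidence. They had ratios of -0.57 and -0.65, lower in 6 of 6 mice and not called. Tnfsf18, the GITR ligand, had 0 UMIs in cluster 39 in all mice, which allows at most 7.88 to 14.2 CPM per mouse (counting error only). Tnfrsf18, which encodes GITR, the antibodies' target, had 0 to 10.2 CPM in cluster 39 and 1.34 to 2.36 CPM in other macrophages, both at or under the level of 3 UMIs in cluster 39.

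The share of cluster 39 among macrophages was compared over all 12 mice, 3 per treatment, of both libraries. In GA-aFuc mice it was 3.41%, 1.99% and 4.24% (3.21% ± 1.14). In GITR/Syn GA-aFuc mice it was 3.22%, 1.77% and 2.11% (2.37% ± 0.758). It was 3.41%, 2.29% and 3.66% in N297A mice (3.12% ± 0.727) and 1.59%, 2.45% and 1.59% in Untreated mice (1.88% ± 0.498; SD, n = 3 each). The ranges of all treatments overlapped. The exact two-sided permutation test of the 4 treatments within libraries gave p = 0.252 over 32400 arrangements, with a smallest possible p of 0.000123. A single mouse's share rests on 10 to 35 cells, and the exact binomial 95% interval of GA-aFuc mouse 3, for example, ran from 2.97% to 5.84%.

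The 2 Fc-enhanced antibodies averaged 2.79% ± 0.979, against 2.50% ± 0.879 for N297A and Untreated mice (SD, n = 6 each), a difference of 0.292 percentage points (exact permutation test within libraries, two-sided, p = 0.600). In library 1 the mean was 3.31% for Fc-enhanced antibodies and 2.44% for N297A and Untreated, and in library 2 it was 2.53% for Fc-enhanced antibodies and 2.62% for N297A and Untreated, so the direction turned between libraries. A fit of cell counts over 24 macrophage clusters with edgeR gave GA-aFuc over Untreated a log2 fold change of 0.82 ± 0.33 (SE; adjusted p = 0.114 over 6 contrasts) and N297A over Untreated 0.75 ± 0.33 (adjusted p = 0.114). Neither passed. Library 1 cells enter only these shares, since their counts were not analysed here.

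**Figure D5:**
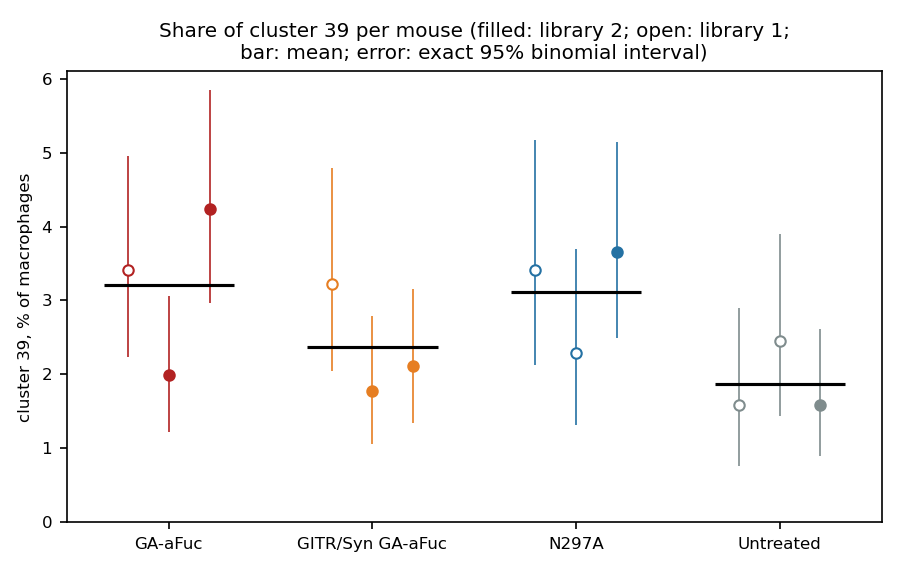
The y axis is cluster 39 as a percentage of annotated macrophages, with 1 point per mouse, by treatment on the x axis, filled for library 2 and open for library 1, with horizontal bars at treatment means and exact 95% binomial intervals as vertical lines. The 3 GA-aFuc mice lie between 1.99% and 4.24% and the 3 Untreated mice between 1.59% and 2.45%.

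Treatment effects within cluster 39 were tested on the summed counts of the 6 mice of library 2 (5536 genes, edgeR's quasi-likelihood test with Benjamini-Hochberg adjustment, 2 residual degrees of freedom). None of the 6 contrasts gave a gene with an adjusted p under 0.05 (0%). Unadjusted p under 0.05 was reached by 127 genes for the Fc-enhanced antibodies against N297A and Untreated, 250 for GA-aFuc against Untreated, 217 for GA-aFuc against N297A, 78 for GITR/Syn GA-aFuc against Untreated, 356 for GITR/Syn GA-aFuc against GA-aFuc and 93 for N297A against Untreated. DESeq2 called 1, 0, 2, 0, 1 and 0 genes in that order. Leaving out a GA-aFuc or GITR/Syn GA-aFuc mouse leaves fewer than 2 residual degrees of freedom and that treatment without a replicate. What sets its remaining mouse apart then cannot be told from the treatment. The counts depend on single mice: without GA-aFuc mouse 2 edgeR called 60, 255, 200, 5, 391 and 14 genes, and without GA-aFuc mouse 3 it called 12, 8, 10, 5, 3 and 13. Without GITR/Syn GA-aFuc mouse 2 the calls were 6, 25, 31, 1, 19 and 2, without GITR/Syn GA-aFuc mouse 3 they were 3, 7, 14, 0, 5 and 2, and without the N297A or the Untreated mouse they were 0 in the contrasts that do not use that mouse.

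The genes nearest to passing are given as values. Mrc1, the mannose receptor, had 207 and 651 CPM in GA-aFuc mice and 134 and 57.9 CPM in GITR/Syn GA-aFuc mice, against 10.5 CPM in the N297A mouse and 19.0 CPM in the Untreated mouse. The Fc-enhanced antibodies had a log2 fold change of 3.72 ± 0.66 (SE, adjusted p = 0.198). All 4 Fc-enhanced mice were above the other 2, which held 4 UMIs of Mrc1 each. In other macrophages the 4 Fc-enhanced mice were also above the other 2. Mrc1 there was 192 and 310 CPM in GA-aFuc mice and 207 and 106 CPM in GITR/Syn GA-aFuc mice. It was 55.6 CPM in the N297A mouse and 57.6 CPM in the Untreated mouse, so the separation was not particular to cluster 39. Mgl2, a lectin of alternatively activated macrophages, had 40.4 and 181 CPM in GA-aFuc mice and 8.63 and 37.4 CPM in GITR/Syn GA-aFuc mice, against 0 CPM in the N297A and Untreated mice (adjusted p = 0.578). Cxcl10 had 35.9 and 41.4 CPM in GA-aFuc mice and 186 and 146 CPM in GITR/Syn GA-aFuc mice, against 289 CPM in the N297A mouse, where 86 of 110 UMIs came from 1 cell, and 233 CPM in the Untreated mouse (-1.74 ± 0.38, adjusted p = 0.578). Slc7a2 had 148 and 814 CPM in GA-aFuc mice and 64.7 and 61.3 CPM in GITR/Syn GA-aFuc mice, against 15.8 CPM in the N297A mouse and 38.0 CPM in the Untreated mouse (2.76 ± 0.68, adjusted p = 1.0).

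Between the 2 Fc-enhanced antibodies, Spp1, osteopontin, had 21.6 and 81.7 CPM in GITR/Syn GA-aFuc mice, against 305 and 1388 CPM in GA-aFuc mice (-4.00 ± 0.76, adjusted p = 0.146). Of the 305 CPM in GA-aFuc mouse 2, 63 of 68 UMIs came from 1 cell. Fabp5, a fatty acid carrier, had 34.5 and 85.1 CPM in GITR/Syn GA-aFuc mice, against 462 and 367 CPM in GA-aFuc mice (-2.79 ± 0.55, adjusted p = 0.146). The 9 tested genes of the alternative activation list had a median log2 fold change of 2.76 for the Fc-enhanced antibodies, with 0 passing, beside 0.04 over all genes. In other macrophages the same contrast gave 13 tested genes of that list a median of 2.02, with 0 passing. Neither median was taken without GA-aFuc mouse 3. In both populations that mouse was the highest for the members Arg1, Mrc1, Mgl2 and Slc7a2.

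Among hypoxia and stress genes, Hmox1 was highest in GA-aFuc mouse 3. It was 5192 CPM in GA-aFuc mouse 3 and 727 CPM in GA-aFuc mouse 2, against 293 and 507 CPM in GITR/Syn GA-aFuc mice, 853 CPM in the N297A mouse and 570 CPM in the Untreated mouse, and without GA-aFuc mouse 3 its fold change for the Fc-enhanced antibodies turned to -0.39. The 2 mice with Xist RNA, which marks a second X chromosome, were GA-aFuc mouse 2 (620 CPM) and GITR/Syn GA-aFuc mouse 2 (539 CPM), against 0 CPM in the other 4. The labels give no sex, and its part in these contrasts was not tested. With 1 N297A and 1 Untreated mouse, each is assumed to vary like the paired treatments.

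Whether treatment acted differently in cluster 39 and in other macrophages was tested as an interaction over 14128 genes, with the mouse as a block (edgeR's quasi-likelihood test, Benjamini-Hochberg adjustment). An adjusted p under 0.05 was reached by 2 genes (0.0142%) for the Fc-enhanced antibodies against N297A and Untreated, by 3 (0.0212%) for GA-aFuc against Untreated and by 7 (0.0495%) for GA-aFuc against N297A. It was reached by 3 genes (0.0212%) for GITR/Syn GA-aFuc against Untreated, by 2 (0.0142%) for GITR/Syn GA-aFuc against GA-aFuc and by 1 (0.00708%) for N297A against Untreated. A limma fit of the per-mouse ratios called 0 genes in all 6 contrasts. It differs from the edgeR fit in its input and in its estimate of the spread as well as in the tool, and it gave Cxcl9 log2 differences of -2.26 for the Fc-enhanced antibodies, -3.86 for GA-aFuc against Untreated and -3.26 for GITR/Syn GA-aFuc against Untreated. In other macrophages alone 1 of 14275 genes (0.00701%) passed for GITR/Syn GA-aFuc against GA-aFuc and 0 in the other contrasts.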

How the data were processed

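The deposited values are UMI counts per feature and droplet in 1 unfiltered matrix of library 2, written by Cell Ranger 9.0.0, per the file headers. The builds are GRCh38 and GRCm39, per the submitters' processing notes, and the matrix has 2979617 barcodes and 72308 features, of which 6 are hashtags. The authors' table gives treatment, cell type and cluster of 19210 cells. The sources do not state how clusters were made or doublets treated. Doublets were not called. Mice were taken from the 12 runs of sorted barcodes in that table, and in library 2 the leading hashtag matched the mouse in 10476 of 10476 cells. Replicates are numbered in run order, and 34 barcodes occur in both libraries.

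Counts were summed per mouse, scaled to CPM of all features, and compared as log2 ratios with a pseudocount of 10 CPM. A minimum mean of 20 CPM in either population applied. Treatment was tested with edgeR 4.0.16 (filterByExpr, TMM, quasi-likelihood; checked on simulated data), with DESeq2 1.42.0 and limma 3.58.1 as alternatives, in R 4.3.3. Shares and hashtag measures had exact permutation tests in Python 3.11.15 with scipy 1.17.1. The interaction fit held 12 sums with the mouse as a block, and its estimated prior degrees of freedom were infinite, so each gene's spread was set by the trend over genes. Binomial intervals are exact (Clopper-Pearson, 95%) and, like floors of 3 UMIs, cover counting error only.

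Named genes are the 20 highest and 10 lowest called ratios, up to 4 members per list, the 4 macrophage markers, up to 5 genes at each end per treatment contrast or the 5 smallest p where fewer passed, and Tnfrsf18, Tnfsf18, Arg1, Mrc1 and the human FCGR genes. Other genes are named as list members. The members, lists and tests were chosen with earlier results of these data known, and clusters 9, 11 and 12, the clusters left out for cell cycle RNA (4, 13, 17, 24 and 56), centred ratios, the limma fit and genes named outside the rule after the data were seen. Promoters come from RefSeq on GRCm38.p6, not the files' build.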

Additional observations from a re-analysis of the deposited data

Results flagged for a closer look

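Treatment effects in cluster 39 were set against those in other macrophages of the same mice, with edgeR's quasi-likelihood test of the interaction over 14128 genes and Benjamini-Hochberg adjustment. Each value below is the log2 fold change of the treatment in cluster 39 minus that in other macrophages, and the genes listed are those with an adjusted p under 0.05. A limma fit of the 6 per-mouse ratios, added after the data had been seen, called 0 genes in all 6 contrasts. For Cxcl9 in GA-aFuc against Untreated limma gave an adjusted p of 0.774. The edgeR fit took each gene's spread from the trend over genes, not from the gene's own spread between mice. N297A and Untreated had 1 mouse each.

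Cxcl9 differed by -2.20 for the Fc-enhanced antibodies (adjusted p = 0.00182), by -4.21 for GA-aFuc against Untreated (adjusted p = 9.2e-10) and by -2.87 for GITR/Syn GA-aFuc against Untreated (adjusted p = 0.000346). In cluster 39 it had 49.4 and 17.8 CPM in GA-aFuc mice and 280 and 10.2 CPM in GITR/Syn GA-aFuc mice, against 1343 CPM in the Untreated mouse, where 168 of 283 UMIs came from 1 cell. In other macrophages it had 860 and 279 CPM in GA-aFuc mice and 758 and 499 CPM in GITR/Syn GA-aFuc mice, against 1144 CPM in the Untreated mouse. Cxcl10, which binds the same receptor, differed by -2.98 for GA-aFuc against N297A, and Cxcl14 by -2.78 for GA-aFuc against Untreated.

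Ccl8 differed by 7.06 for the Fc-enhanced antibodies, by 5.13 for GA-aFuc against Untreated and by 11.46 for GA-aFuc against N297A. In cluster 39 it had 26.9 and 5725 CPM in GA-aFuc mice and 21.6 and 13.6 CPM in GITR/Syn GA-aFuc mice. It had 0 CPM in the N297A mouse and 4.75 CPM in the Untreated mouse. In other macrophages it had 91.5 and 1005 CPM in GA-aFuc mice and 52.8 and 31.8 CPM in GITR/Syn GA-aFuc mice. There the N297A mouse had 20.9 CPM and the Untreated mouse 71.7 CPM. In cluster 39 each other mouse held 0 to 6 UMIs, against 1935 in GA-aFuc mouse 3. Without that mouse, or without GITR/Syn GA-aFuc mouse 3, none of the 3 passed. Fitted values against a library at 0 are not bounds, which also holds for Birc5 (-11.27 for GA-aFuc against N297A), with 0 and 0 CPM in GA-aFuc mice, against 49.9 CPM in the N297A mouse.

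For GA-aFuc against N297A, Spp1 differed by 2.57, Mrc1 by 2.98, Hspa1a by 2.88 and Ly6c2 by -2.24. All 4 rest on 1 N297A mouse, whose cluster 39 cells held 31, 4, 6 and 117 UMIs of them in that order. Both GA-aFuc mice were above the N297A mouse for Mrc1 in other macrophages too. Ly6c2 had 4.49 and 94.7 CPM in GA-aFuc mice and 307 CPM in the N297A mouse in cluster 39. In other macrophages Ly6c2 had 36.3 and 85.8 CPM in GA-aFuc mice and 89.0 CPM in the N297A mouse. For GITR/Syn GA-aFuc against GA-aFuc, Spp1 differed by -2.45 and Clec7a by -1.85. For GITR/Syn GA-aFuc against Untreated, F13a1 differed by -2.69 and Upp1 by -4.18. In cluster 39 Upp1 had 8.63 and 6.81 CPM in GITR/Syn GA-aFuc mice, against 152 CPM in the Untreated mouse. Each of these GITR/Syn GA-aFuc values is 2 UMIs, under the floor of 3 UMIs. F13a1 also differed by -4.77 for N297A against Untreated, with 15.8 CPM in the N297A mouse, against 166 CPM in the Untreated mouse, where 16 of 35 UMIs came from 1 cell. Each of these treatments had 1 mouse, so this difference has no replicate check of its own.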

How the results depend on the processing

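Calls of the cluster comparison changed with the pseudocount. With 50 CPM, 49 genes were higher and 39 lower, and the hypoxia list's median was 1.13. With 1 CPM, 383 were lower, and with a minimum of 50 CPM, 120. Centring on all genes gave that list a median of 1.5. Without clusters 4, 13, 17 and 56 in the comparison 94 genes were lower, and without cluster 24 as well 93. Leaving out each mouse gave 90 to 103 higher, 227 to 272 lower and a list median of 1.27 to 1.43. Among the called genes of the 137 named, the histone gene H2ac24 alone changed direction under these settings, to 0.12 without clusters 4, 13, 17, 24 and 56. Named genes that were not called were not counted for a change of direction. For the share of cluster 39 among macrophages, Fc-enhanced against other, the difference was -0.0958 percentage points in library 2 alone and 0.00259 to 0.523 with each mouse left out. For the share of cluster 39 among macrophages, 4 treatments, the exact permutation test then gave p = 0.0672 to 0.403.

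Within cluster 39, calls per contrast (Fc-enhanced, GA-aFuc against Untreated, GA-aFuc against N297A, GITR/Syn GA-aFuc against Untreated, GITR/Syn GA-aFuc against GA-aFuc, N297A against Untreated) were 1, 0, 2, 0, 1 and 0 with DESeq2, 10, 40, 45, 3, 103 and 2 without a filter, and 0, 1, 0, 1, 1 and 0 with equal cells per mouse. Leaving out each mouse, in the contrasts that do not need it, gave 0 to 255 for GA-aFuc against Untreated, 0 to 200 for GA-aFuc against N297A, 0 to 5, 0 to 391 and 2 to 14 for the last 3, and 3 to 60 for the Fc-enhanced antibodies. For the interaction limma gave 0 in each contrast. Leaving out each mouse gave 0 to 37, 1 to 189, 1 to 131, 0 to 5, 0 to 309 and 1 to 8 in the same order, RLE factors gave 4 and 2 for the last 2 contrasts, and leaving out clusters 12, 25 and 45 gave 4 for GA-aFuc against N297A. The cause of these changes was not tested. Without a GA-aFuc or GITR/Syn GA-aFuc mouse that treatment has no replicate, and fewer than 2 residual degrees of freedom remain.

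Among treatment effects, the directions that turned belong to results that did not pass. With each mouse left out, Hmox1 ran from -0.39 (without GA-aFuc mouse 3) to 1.01 for the Fc-enhanced antibodies and from -0.27 (the same mouse) to 2.55 for GA-aFuc against N297A. Egln3 ran from -0.23 (the same mouse) to 1.60 for GA-aFuc against N297A, and the interaction of Ccl8 for GITR/Syn GA-aFuc against GA-aFuc from -3.80 to 0.39 (the same mouse). For GITR/Syn GA-aFuc against Untreated, Arg1 ran from -0.41 (without its mouse 2) to 1.01 and Egln3 from -0.46 (without its mouse 3) to 0.84. For N297A against Untreated, Arg1 was 0.036 without a filter and 0.084 without the highest 1% of cells by UMIs, C1qa 0.017 without a filter and Hmox1 -0.41 with equal cells. No paired analysis was possible because the labels give the mice no numbers that pair treatments.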

Other observations

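FCRLB, a human Fc receptor-like gene that lies outside the rule for named genes and was chosen after its values were seen (human_FCRLB in the combined build), was called higher in cluster 39. It averaged 325 ± 70.0 CPM in cluster 39 and 154 ± 44.7 CPM in other macrophages (SD, n = 6 mice; median log2 ratio 1.07, higher in 6 of 6 mice). Between cluster 39 and cluster 12 the median log2 ratio was 2.80. FCRLB was not among the 6 genes called higher over cluster 9 or the 20 called higher over cluster 11.

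Ighm, the immunoglobulin mu gene, had 18.0, 17.8, 51.8, 44.3, 15.8 and 19.0 CPM in cluster 39, against 139, 134, 193, 152, 163 and 168 CPM in other macrophages (-2.39), with no overlap. The low level was shared with the nearest clusters. Ighm averaged 13.1 CPM over mice in cluster 9, 34.8 CPM in cluster 11 and 28.9 CPM in cluster 12, against 27.7 CPM in cluster 39. B cell markers summed to 0 to 6.81 CPM in cluster 39 and 0.788 to 1.4 CPM in other macrophages, so these were at or near 0 in both. In library 1, cluster 39 held 113 of 4114 macrophages, known from the annotation alone.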
